A study of Mus musculus with 24 samples.

Results

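The activator protein 1 (AP-1) family genes Fos, Fosb, Fosl1, Fosl2, Jun, Junb, Jund, Atf3 and Batf3 were followed through the ChIP-seq peak lists of 3 kinds of cultured mouse fibroblasts. The 9 genes were taken by name from the GENCODE vM1 annotation of mm9 out of 22225 protein-coding genes, and each was described over its body with 10 kb on each side, with 25 kb also given. Mouse embryonic fibroblasts (MEF) came from embryos of day 10 to 13 with the strain label C57BL/6, cancer-associated fibroblasts (MMTV-CAF) from mammary tumours of FVB/NJ mice carrying the MMTV-PyMT transgene, in which the mammary tumour virus promoter drives polyoma middle T, and wound-healing fibroblasts from dorsal skin wounds of C57BL/6 mice at day 10. The cells of all groups had been immortalised with papillomavirus oncogenes, controls included. WT marks cells with intact Prrx1, SG cells in which Prrx1 was cut with CRISPR and a guide RNA, and KI a further MEF genotype, read here as the 129S-Prrx1tm1Jfm/Mmmh mutant that the labels name, backcrossed to C57BL6 per the study, with lacZ inserted into the homeodomain exon of Prrx1. The MEF WT list served as the control for both MEF genotypes, and whether its cells carried a non-targeting guide is not given in the sources used here.

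The series held 24 samples, of which 7 were inputs. The other 17 each gave 1 peak list, 7 for trimethylation of histone H3 at lysine 4 (H3K4me3), 7 for acetylation at lysine 27 (H3K27ac) and 3 for PRRX1 in WT cells. Every group had 1 library, so the values below describe single lists, no p-value is given and the spread between cultures is unknown. A mark weaker in a list may be carried by fewer cells or be weaker in each cell, and these cannot be told apart. The sequencing depth behind the lists is unknown. The H3K27ac lists held 29325 to 61603 summits and the H3K4me3 lists 13125 to 29166 regions, the MEF KI list being the smallest of both. MEF KI also had the lowest median H3K27ac score, a -log10 p of 11.9 against 15.2 to 21.2 in the other lists, and the lowest median H3K4me3 fold over input at a transcription start site (TSS), 3.77 against 5.61 to 10.8. The PRRX1 lists held 3048 summits for MEF, 8000 for MMTV-CAF and 5698 for the wound list. Whether the MMTV-CAF list, with exactly 8000, was shortened before deposit is not given in the sources used here, so its counts, its share of all genes with a summit and its missing summits may depend on that. H3K4me3 lay over a TSS of 7 to 11 of 12 fibroblast marker genes, of at most 1 of 8 epithelial markers (Cdh1), of 1 of 6 immune markers (Cd14) and of at most 1 of 6 endothelial markers (Kdr). Prrx1 itself kept an H3K4me3 region in all lists, of 8628 bp in MEF WT and 4558 bp in MEF KI, so these marks do not check the deletion.

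AP-1 is a dimer of basic leucine zipper proteins. JUN proteins pair with themselves or with FOS proteins, FOS proteins need a JUN partner, and the dimers bind TGANTCA or the longer cyclic AMP response element, which ATF3 also binds. Fos, Jun, Fosb, Junb and Atf3 are immediate early genes that serum, growth factors and stress switch on without new protein synthesis, whereas Jund is made more steadily. H3K4me3 marks active promoters, H3K27ac marks active promoters and enhancers, and PRRX1 is a homeodomain factor of mesenchymal cells. Homeodomains of this kind bind the core TAATTA.

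The DNA under PRRX1 summits near this family is shown first, because the letters differ between sites. Of the 13 PRRX1 sites in the 10 kb windows, 5 overlap an exon and the other 8 are printed, together with both sites that the MEF list had within 25 kb. The nearest start was that of the named member except at the Junb far upstream site, nearest to Hook2, and the Jund downstream site, nearest to Pde4c. Each run is 201 bases of mm9 centred on the summit, written 5′ to 3′ on the strand of the member gene, and none overlaps an annotated exon. Capitals mark the homeodomain core TAATTA. They also mark the AP-1 site TGANTCA and the CArG box, the site of serum response factor, as well as TGACNTCA, all sought on both strands. The words TGACNTCA and CArG box were chosen after the letters had been seen.
Fosl2 upstream, MMTV-CAF and wound-healing fibroblasts, chr5:32437941-32438141: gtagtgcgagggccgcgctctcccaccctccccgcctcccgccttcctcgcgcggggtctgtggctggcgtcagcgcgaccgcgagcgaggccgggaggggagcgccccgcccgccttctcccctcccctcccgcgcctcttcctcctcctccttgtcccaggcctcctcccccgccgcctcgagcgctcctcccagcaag
Fosl2 intron, MMTV-CAF, chr5:32441750-32441950: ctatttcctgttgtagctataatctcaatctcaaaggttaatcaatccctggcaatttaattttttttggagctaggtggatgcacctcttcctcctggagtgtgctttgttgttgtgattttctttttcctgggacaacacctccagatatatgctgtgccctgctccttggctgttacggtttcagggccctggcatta
Fosl2 downstream, MMTV-CAF, chr5:32462744-32462944: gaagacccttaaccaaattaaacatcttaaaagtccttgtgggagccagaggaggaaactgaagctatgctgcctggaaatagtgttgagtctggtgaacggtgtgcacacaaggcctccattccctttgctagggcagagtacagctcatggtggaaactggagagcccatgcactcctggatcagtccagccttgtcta
Fosl1 upstream, MMTV-CAF, chr19:5444534-5444734: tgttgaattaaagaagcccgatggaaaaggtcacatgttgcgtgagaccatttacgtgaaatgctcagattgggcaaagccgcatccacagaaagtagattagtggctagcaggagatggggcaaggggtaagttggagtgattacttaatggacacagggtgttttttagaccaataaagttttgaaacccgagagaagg
Fos upstream, MEF and wound-healing fibroblasts, chr12:86791956-86792156: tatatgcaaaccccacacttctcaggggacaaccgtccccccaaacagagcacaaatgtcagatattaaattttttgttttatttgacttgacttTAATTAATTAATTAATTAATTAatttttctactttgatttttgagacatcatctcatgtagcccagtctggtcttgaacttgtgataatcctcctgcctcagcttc
Fos downstream, wound-healing fibroblasts, chr12:86827663-86827863: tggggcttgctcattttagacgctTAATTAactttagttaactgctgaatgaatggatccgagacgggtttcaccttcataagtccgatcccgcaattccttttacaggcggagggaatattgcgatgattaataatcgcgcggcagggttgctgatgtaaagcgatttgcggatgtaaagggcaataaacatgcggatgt
Jund downstream, MEF, chr8:73243413-73243613: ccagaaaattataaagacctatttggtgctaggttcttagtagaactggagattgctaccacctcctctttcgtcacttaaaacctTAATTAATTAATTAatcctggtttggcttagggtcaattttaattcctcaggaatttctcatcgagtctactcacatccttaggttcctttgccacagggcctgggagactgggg
Junb far upstream, wound-healing fibroblasts, chr8:87509578-87509778: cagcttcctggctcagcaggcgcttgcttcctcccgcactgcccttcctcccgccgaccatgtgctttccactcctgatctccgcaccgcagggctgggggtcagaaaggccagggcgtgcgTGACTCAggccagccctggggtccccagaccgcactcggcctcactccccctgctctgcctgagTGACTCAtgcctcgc
Junb near upstream, MMTV-CAF, chr8:87503742-87503942: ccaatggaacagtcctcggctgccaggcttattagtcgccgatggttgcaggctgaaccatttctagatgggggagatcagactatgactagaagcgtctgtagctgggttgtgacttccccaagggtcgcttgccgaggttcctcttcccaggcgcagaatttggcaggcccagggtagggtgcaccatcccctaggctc
Junb downstream, wound-healing fibroblasts, chr8:87500349-87500549: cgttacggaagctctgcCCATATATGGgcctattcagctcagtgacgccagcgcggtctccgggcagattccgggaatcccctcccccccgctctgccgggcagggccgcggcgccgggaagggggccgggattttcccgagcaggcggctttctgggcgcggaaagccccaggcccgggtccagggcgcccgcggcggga
The Fos upstream and Jund downstream runs held TAATTA in overlapping copies, 5 and 3 of them, and the Fos downstream run held 1 copy. The Junb far upstream run held TGANTCA at 2 places, both times as TGACTCA, and the Junb downstream run held a CArG box. The other 5 runs held none of these words, and neither did the 5 sites over an exon. Among these runs without a match was the Fosl2 upstream site, the only one inside a 10 kb window that was listed in more than 1 fibroblast type.

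The letters just upstream of Jun and Junb are given next, because the H3K4me3 region was interrupted there in MEF KI. Promoter sequences of 8 members were used, and that of Fosl1 was not used here. All 8 RefSeq sequences (GRCm38.p6, 250 bases before to 50 after the start) matched mm9 exactly and at 1 place. The RefSeq start of Jun was the annotated one and that of Junb lay at -30 bp from it. The 250 bases before the start are printed, with capitals for the same words.
Jun, chr4:94718914-94719163, minus strand: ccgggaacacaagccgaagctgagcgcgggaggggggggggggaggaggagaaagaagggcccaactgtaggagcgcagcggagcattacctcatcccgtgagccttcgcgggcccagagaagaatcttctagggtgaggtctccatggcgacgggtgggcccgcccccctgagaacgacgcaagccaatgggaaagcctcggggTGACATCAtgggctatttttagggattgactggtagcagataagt
Junb, chr8:87502648-87502897, minus strand: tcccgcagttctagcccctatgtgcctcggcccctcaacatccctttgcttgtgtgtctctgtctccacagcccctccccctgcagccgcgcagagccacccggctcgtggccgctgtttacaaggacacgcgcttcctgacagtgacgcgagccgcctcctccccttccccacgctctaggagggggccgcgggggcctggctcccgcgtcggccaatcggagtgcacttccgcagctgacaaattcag
The Jun run lies in an intron of the antisense gene BC042782 and held TGACNTCA, as TGACATCA, which begins at -45. Of all 32851 RefSeq promoters 8.83% held TGACNTCA, 7.81% TGANTCA and 1.63% a CArG box. Of the 8 member promoters 1 held TGACNTCA and 0 held either of the others. No match says only that the letters are not in the window.

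The members differed in the width of H3K4me3 at their start. Fosl2 had the widest region of the family in all 7 lists, Jun and Junb followed in most, and Batf3, with 996 to 2274 bp, had the narrowest in 6 lists. Fosl2 (chr5:32438845-32460204, plus strand) encodes FRA-2, a FOS protein without the strong activation domain of FOS. Its region was 8887 bp wide in MEF WT, 6079 bp in MEF KI and 9046 bp in MEF SG. It was 15949 bp in MMTV-CAF WT, 13765 bp in MMTV-CAF SG, 11265 bp in wound WT and 13235 bp in wound SG. In every list this was wider than at 99.8% or more of all protein-coding genes, those without a region included. The width was not matched by height, since the fold over input at Fosl2 exceeded that of 28.5% to 69.7% of the regions at a TSS. The upstream edge lay between -3919 and -3663 bp from the TSS in 6 lists, and the downstream edge ran from 5223 bp in MEF WT to 12194 bp in MMTV-CAF WT.

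**Figure D1:**
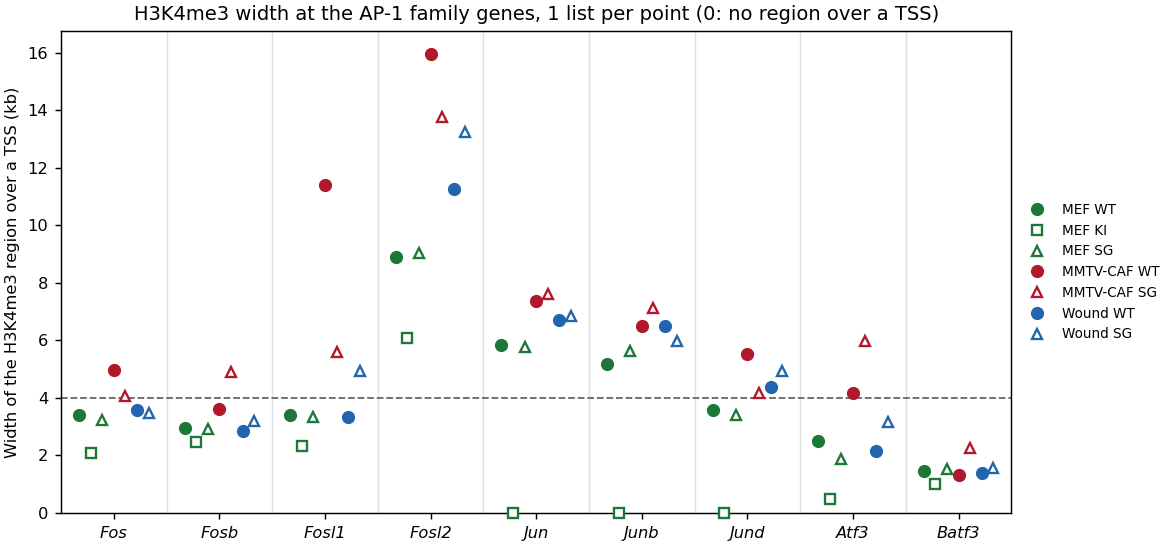
Width in kb of the widest H3K4me3 region over a TSS (vertical axis) for each AP-1 family gene (horizontal axis), with 1 point per list, filled for WT, open squares for KI and open triangles for SG, coloured by fibroblast type. The dashed line is at 4 kb, and points at 0 have no region over a TSS. Fosl2 lies above 4 kb in all 7 lists, while Jun, Junb and Jund are at 0 in MEF KI.

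Jun (chr4:94715725-94718913, minus strand), which encodes c-JUN, had a region of 5846 bp in MEF WT, 5778 bp in MEF SG, 7357 bp in MMTV-CAF WT, 7600 bp in MMTV-CAF SG, 6695 bp in wound WT and 6839 bp in wound SG. Junb (chr8:87500811-87502617, minus strand), whose product often has weaker transactivation than c-JUN, had 5173, 5640, 6509, 7115, 6484 and 5994 bp in the same order. Jund (chr8:73221638-73224515, plus strand) had 3574, 3401, 5526, 4159, 4393 and 4932 bp. All 3 Jun genes therefore had a region in the same 6 lists, and none had a region over a TSS in MEF KI. At Jund the first annotated TSS lay outside the region in 5 of those 6 lists, whose regions began 195 to 612 bp downstream of it and covered the second TSS at 1219 bp. Only in MMTV-CAF SG did it begin upstream, at -38 bp.

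Fos (chr12:86814840-86818223, plus strand), the founding immediate early gene, had a region of 3406 bp in MEF WT, 2078 bp in MEF KI and 3228 bp in MEF SG. It measured 4973 bp in MMTV-CAF WT, 4049 bp in MMTV-CAF SG, 3568 bp in wound WT and 3464 bp in wound SG. Fosb (chr7:19888070-19895394, minus strand) had 2965, 2475, 2922, 3619, 4906, 2856 and 3184 bp in the same order of lists. Both genes thus stayed below 4 kb in MEF and wound-healing fibroblasts and passed it in MMTV-CAF lists only. Fosl1 (chr19:5447703-5455945, plus strand), which encodes FRA-1, had 3411, 2314, 3322, 11415, 5591, 3322 and 4941 bp. The MMTV-CAF WT region of Fosl1 stood out because it ran on from -691 to 10723 bp and took in the start of the neighbouring gene Ccdc85b, whereas in MMTV-CAF SG separate regions covered -1049 to 4541 bp and 6376 to 10723 bp. Atf3 (chr1:192994175-193007219, minus strand), a stress-induced factor that often represses, had 2507, 489, 1886, 4158, 5967, 2142 and 3149 bp. Batf3 (chr1:192922293-192932822, plus strand), which lacks an activation domain and pairs with JUN proteins, had 1447, 996, 1534, 1313, 2274, 1383 and 1559 bp.

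Regions over 4 kb, a common mark of broad H3K4me3, lay at Fosl2, Jun and Junb in MEF WT and MEF SG, where 9.43% and 6.99% of all genes with a region at a TSS had one. In MEF KI only Fosl2 of the 6 members with a region had one, against 3.58% of genes. In MMTV-CAF WT 7 members had a broad region, the exceptions being Fosb and Batf3, and in MMTV-CAF SG 8 did, the exception being Batf3. The background there was 28.9% and 24.2%, so broad regions were common in the MMTV-CAF lists. In wound-healing fibroblasts 4 members (Fosl2, Jun, Junb, Jund) had one in WT and 5 in SG, Fosl1 being added, against 8.82% and 15.5% of genes.

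In H3K4me3 width, MEF KI differed from MEF WT most at the Jun genes and at Atf3. The width fell by 1.5-fold or more, or the region was absent over every TSS, at 5 members (Fos, Jun, Junb, Jund, Atf3), against 41.8% of the genes with a region in either list. It rose at 0 members, against 1.03%. Over all genes with a region in both lists the median ratio was 0.796, and after division by it Fos (0.61, then 0.766) lay within 1.5-fold, as it did with a 2-fold limit. The other 4 stayed past it, the 3 Jun genes because a missing region counted as a width of 0. With regions of a -log10 p of at least 10 only, the count was 7, Fosb and Batf3 being added. No share of all genes was computed at that cutoff, and the median -log10 p of all H3K4me3 regions was 9.93 in MEF KI and 28.6 in MEF WT. The fold over input was lower by 1.5-fold, or the region absent, at 8 members, against 62.8% of genes, and higher at 0 against 0.748%. It went from 4.88 to 2.55 at Fos, 4.66 to 2.53 at Batf3, 4.04 to 2.36 at Atf3, 4.22 to 2.62 at Fosb and 4.74 to 3.08 at Fosl1, while Fosl2, with 5.24 and 4.34, stayed within the limit. The median fold ratio over all genes was 0.659, and after division by it, or with a 2-fold limit, only the 3 members without a region were left. The region was absent at Jun, Junb and Jund, as at 22.6% of the genes that had one in MEF WT, and at Atf3 it shrank from 2507 to 489 bp, a ratio of 0.195 below which lay 0.503% of the genes with a region in both lists. The Jun genes kept H3K4me3 on either side of the start. At Jun the KI regions ended at -397 bp and resumed at 126 bp, a gap of 522 bp that holds the 250 bases printed above. At Junb the gap was 1025 bp, from -847 to 179 bp, and also held the printed bases. At Jund regions lay at 692 to 921 bp and from 1399 bp on, with the second TSS in a gap of 477 bp. Such neighbours were usual, since 65.1% of the genes that had lost the region over their TSS had one within 1 kb. The weaker scores of the whole MEF KI list move with these gaps, and their part in them was not tested. With any region within 1 kb of a TSS counted, an alternative added after seeing the data, the width ratio of KI over WT was 0.496 at Jun, 0.515 at Junb and 0.585 at Jund. The 3 genes thus remained past 1.5-fold, but these ratios were not divided by the median ratio of all genes.

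**Figure D2:**
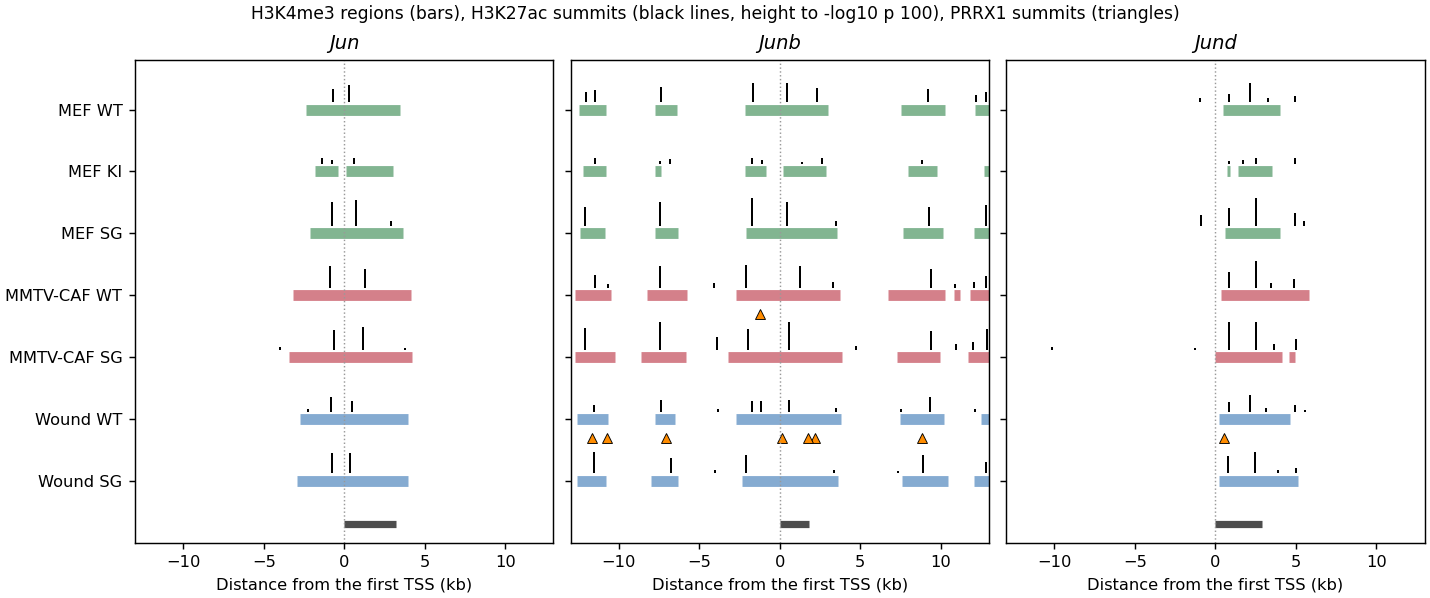
H3K4me3 regions (bars), H3K27ac summits (black lines, height to a -log10 p of 100) and PRRX1 summits (triangles, WT lists only) around Jun, Junb and Jund, by distance in kb from the first annotated TSS (horizontal axis) in the 7 conditions (rows). The grey bar is the gene body. In MEF KI the bars break at the starts of Jun and Junb, while the other 6 rows show 1 bar across each.

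With the guide RNA, H3K4me3 at the family moved little. In MEF SG all 9 members stayed within 1.5-fold of MEF WT, 0 lower against 8.81% of genes and 0 higher against 1.37%. In MMTV-CAF SG Fosl1 was lower (ratio 0.49, against 8.09% of genes lower) and Batf3 higher, from 1313 to 2274 bp (ratio 1.73, against 8.2% of genes higher). The Fosl1 width in WT is that of the 1 region that also covered the start of Ccdc85b. In SG separate regions lay over that span, and the fold over input at Fosl1 was 11.3 in WT and 11.2 in SG. In wound SG again 0 members were lower, against 3.98%, and 0 higher, against 14.2%, with Fosl1 (1.49) and Atf3 (1.47) closest to the limit. The median log2 width ratio of the members was -0.02 for MEF, 0.05 for MMTV-CAF and 0.17 for the wound list, beside -0.09, -0.05 and 0.18 over all genes with a region in both lists. The fold over input stayed within 1.5-fold at all 9 members in all 3 types, with ratios from 0.894 to 1.27 for MEF, from 0.99 to 1.3 for MMTV-CAF and, for the wound lists, from 0.98 to 1.39. Over all genes 4.45%, 3.46% and 2.67% were lower and 2.17%, 8.04% and 6.57% higher in the same order.

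Among the WT lists, widths were greatest in MMTV-CAF for 8 of 9 members, Batf3 being the exception. From MEF WT to MMTV-CAF WT the median log2 width ratio of the members was 0.55, beside 0.40 over all genes with a region in both lists, and from MMTV-CAF WT to wound WT it was -0.34 beside -0.47. The wider regions of the members in MMTV-CAF thus went with wider regions of the whole list.

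H3K27ac was summed as the -log10 p of all summits in a window. Levels of different genes were compared per kb of window. Junb ranked first in 6 lists, with 13.3 (WT), 4.86 (KI) and 17.1 (SG) per kb in MEF, 16.4 (WT) and 20.6 (SG) in MMTV-CAF and 11.2 in wound WT, and had 10.2 in wound SG, where Fosl1 had 10.5. Per kb, Junb exceeded 99.6% or more of all protein-coding genes in every list and Fosl1 98.4% or more. Batf3 was at the bottom, with 0.598, 0, 1.5, 0.827, 2.67, 0 and 1.05 per kb from MEF WT to wound SG, and Atf3 next above it with 1.51, 0, 2.88, 1.71, 4.2, 0.674 and 1.5. Fos, with 0 to 6.79 per kb, shared the 0 of MEF KI. Jun ranged from 2.49 to 8.47 per kb, Jund from 2.89 to 12.3, Fosl2 from 1.61 to 8.89 and Fosb from 1.02 to 8.34. Without replicates it cannot be said which neighbours in this order differ.

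**Figure D3:**
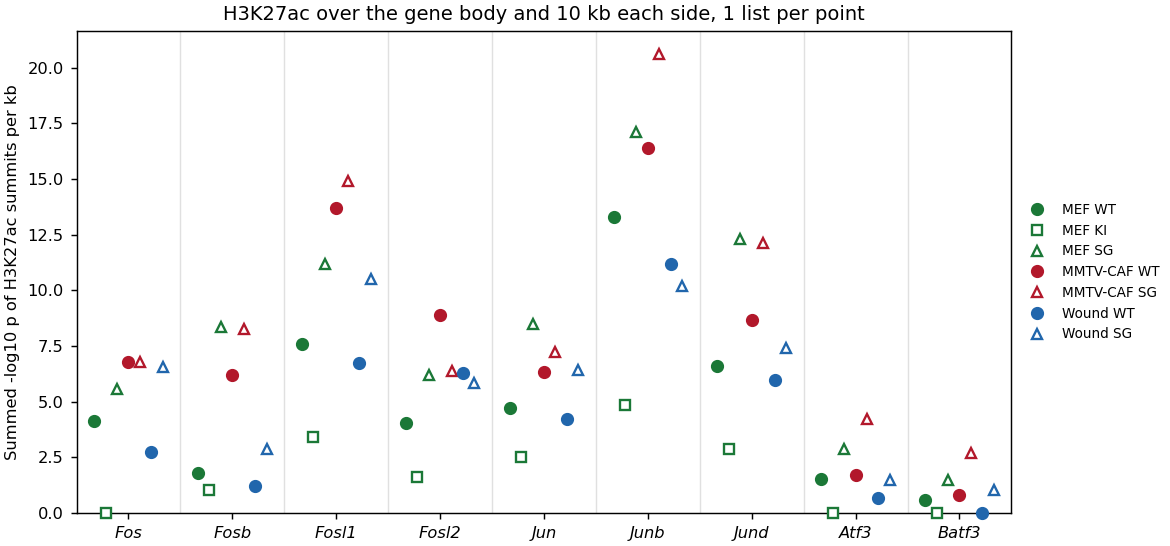
Summed -log10 p of the H3K27ac summits per kb of window (vertical axis; gene body and 10 kb on each side) for each AP-1 family gene, with 1 point per list, filled for WT, open squares for KI and open triangles for SG, coloured by fibroblast type. Junb and Fosl1 reach 20.6 and 14.9 per kb, and Fos, Atf3 and Batf3 are at 0 in MEF KI.

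Some H3K27ac summits around the members lay closer to other genes. Joined within 500 bp, the H3K27ac summits of all lists gave 147 sites in the 25 kb windows, and 63 of these were nearer to the TSS of another protein-coding gene. These were 26 of 33 sites at Fosl1, where AI837181 was nearest to 10 and Efemp2 to 5, and 14 of 21 at Junb, where Rnaseh2a was nearest to 6 and Hook2 to 5. At Jund they were 13 of 15, of which Lsm4 was nearest to 8 and Gm11175 to 4, and at Fosb 6 of 15, of which Ercc1 was nearest to 4 and Rtn2 to 2. The rest were 1 of 4 at Batf3, nearest to Nsl1, and 3 of 29 at Fosl2, nearest to Gm10463. The Fosl2 sites nearest to Gm10463 include the summits at -2104 bp in wound SG and -2184 bp in MMTV-CAF SG, the strongest of Fosl2 in those lists (128 and 104). The sites nearest to AI837181, Efemp2, Lsm4, Ercc1 and Nsl1 all lay outside the 10 kb windows and so outside the sums above. Inside the 10 kb window of Fosl1, sites nearest to Ccdc85b (4) and Fibp (3) entered the sums. At Fos (12 sites), Jun (13) and Atf3 (5) every site was nearest to the member itself. Most sites varied between lists, 19 of 147 being listed in all 7, 6 in all but MEF KI and 47 in a single list. Fosl2 had 29 sites and 0 of them in all 7 lists, and Jund had 5 of 15 in all 7.

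At Fos a second H3K4me3 region lay downstream of the gene in all 7 lists, starting 11381 to 11895 bp and ending 13914 to 14475 bp from the TSS, where the annotation has no gene of any type. An H3K27ac summit lay in it at 12439 to 12547 bp in 5 lists, with a -log10 p of 27 in MEF WT, 36.1 in MEF SG, 44.1 in MMTV-CAF WT, 40 in MMTV-CAF SG and 30 in wound SG. MEF KI and wound WT had none there, although wound WT carried the PRRX1 summit at 12923 bp printed above. A further region lay upstream, between -19258 and -17275 bp, in all 7 lists, with a width of 399 bp in MEF KI and 1154 to 1902 bp in the others.

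**Figure D4:**
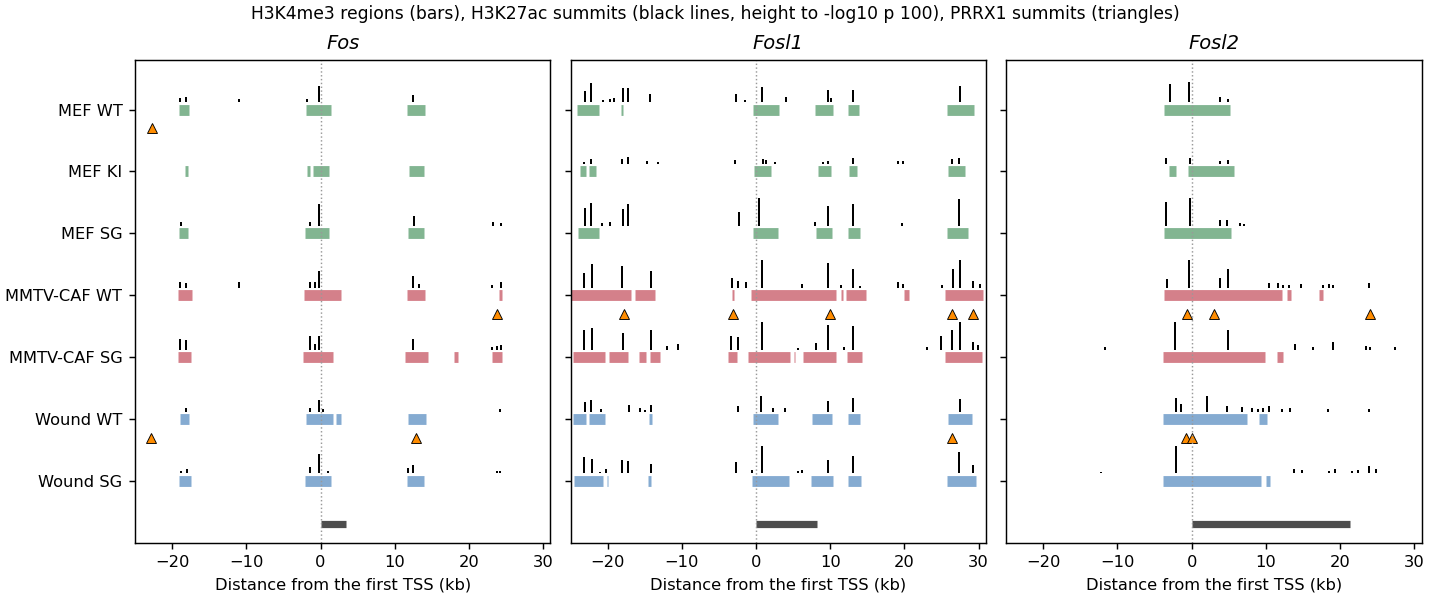
H3K4me3 regions (bars), H3K27ac summits (black lines, height to a -log10 p of 100) and PRRX1 summits (triangles, WT lists only) around Fos, Fosl1 and Fosl2, by distance in kb from the first annotated TSS (horizontal axis) in the 7 conditions (rows). The grey bar is the gene body. Fos shows a separate bar near 12 kb in every row, and the Fosl2 bar covers the start in every row.

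Neighbouring H3K27ac summits were joined into clusters over the default gap of the usual super-enhancer ranking (ROSE). Each cluster was scored by the sum of its -log10 p in place of reads, and those past the bend of the curve of ranked scores count here as super-enhancers. Fosl1 and Junb overlapped a super-enhancer in all 7 lists. With joining over at most 5 kb neither did in MEF KI, and Fosl1 did in none of the MEF lists. Joining over 20 kb went the other way in MEF KI and raised the number of members with one, as given in the closing section. The best cluster at Fosl1 ranked 38, 36, 42, 12, 20, 69 and 16 from MEF WT to wound SG, among 13518 to 19061 clusters per list, and that at Junb 48, 271, 66, 162, 105, 96 and 137. These clusters span 20.3 to 75.5 kb and take in sites of the neighbours named above. Fosb had one in 5 lists, with rank 446 in MEF WT, 52 in MEF SG, 210 in MMTV-CAF WT, 185 in MMTV-CAF SG and 155 in wound SG, against 4855 in MEF KI and 7186 in wound WT. In those 5 lists the Fosb cluster spans 44.1 to 49.4 kb and takes in sites nearest to Ercc1. In MEF WT and MEF SG the strongest summit within 25 kb, with 61.8 and 125, was nearest to Ercc1. Fosl2 had one in 5 lists, its cluster ranking 1067, 1085, 714, 309, 953, 152 and 1645 from MEF WT to wound SG, where MEF KI and wound SG fell outside. Jund had one in 4 lists, in MMTV-CAF SG through a cluster of 32 summits over 94.6 kb. Fos (rank 943) and Jun (rank 1315) had one in wound SG only, and Atf3 and Batf3 in none. In all, MEF WT had a super-enhancer at 4 members (10.4% of all genes), MEF KI at 2 (4.07%), MEF SG at 5 (11.5%), MMTV-CAF WT at 4 (10.9%), MMTV-CAF SG at 5 (10.5%), wound WT at 4 (7.4%) and wound SG at 6 (11.9%).

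The lower rank of the Fosl2 cluster in wound SG went with a wider spacing of its summits. In wound WT 13 summits ran from -2114 to 23946 bp with no gap wide enough to split them, the strongest with a -log10 p of 55.9 at 2073 bp. In wound SG the strongest summit, at -2104 bp, had 128 against 47.8 for the WT summit at -2114 bp, but the next one downstream lay at 13861 bp, too far to be stitched, while the H3K4me3 region covered -3884 to 9350 bp.

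In MEF KI the summed H3K27ac was lower than in MEF WT at all 9 members, which is close to what the list showed as a whole, since 90.4% of the genes with a summit in either list were lower and 3.06% higher, with 0 members higher. Fos went from 97 to 0, Atf3 from 49.9 to 0 and Batf3 from 18.3 to 0, and no KI summit lay within 25 kb of these 3 genes. Of all genes with a summit in MEF WT, 17% had none in MEF KI. The other 6 members kept summits, with sums of 49 and 27.8 at Fosb, 214 and 96.3 at Fosl1, 168 and 66.7 at Fosl2, 109 and 57.8 at Jun, 291 and 106 at Junb, and 151 and 66 at Jund in WT and KI. Their median ratio was 0.443 beside 0.312 over all genes with summits in both lists, and all 6 lay above that median of all genes. Relative to the shift of the list, these 6 were thus less reduced than the typical gene, and Fosb (1.82) and Jun (1.7) came out more than 1.5-fold higher after division by 0.312. Jun, Junb and Jund, which had no H3K4me3 region over their TSS in MEF KI, were among the 6 that kept H3K27ac, and Fos, Atf3 and Batf3, which lost their summits, kept an H3K4me3 region.

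In MEF SG the sums were higher than in MEF WT at all 9 members, past 1.5-fold at 6 (Fosb, Fosl2, Jun, Jund, Atf3, Batf3) against 44.2% of genes, and lower past 1.5-fold at 0 against 6.11%. Fosb had the widest difference, from 49 with 3 summits to 228 with 7, a ratio of 4.66 that exceeded that of 99.1% of the genes with summits in both lists. The summits that MEF SG added in the Fosb window lay at 2076, -135, -6620 and -9839 bp, and all but the one at -135 bp belonged to sites also listed in MMTV-CAF WT. The median ratio of the members was 1.8 beside 1.41 over all genes, and only Fosb and Batf3 (2.52) passed 1.5-fold after division by the latter.

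In MMTV-CAF SG Atf3 (56.7 to 139, ratio 2.45) and Batf3 (25.3 to 81.5, ratio 3.23) were higher, 2 members against 30.2% of genes. Below 1.5-fold lay 0 members against 9.39% of genes, the lowest being Fosl2 with 368 and 263, a ratio of 0.716. That ratio passed the limit after division by the median ratio of all genes (0.605), which was 1.18, and with only the summits nearest to Fosl2 (0.475). The last value depends on where summits were called. The WT summit at -304 bp (116) counts to Fosl2, whereas the SG summit at -2184 bp (104) counts to Gm10463 and is left out. The Fosl2 summits numbered 13 in WT and 8 in SG. At Atf3 the SG list added summits at -6373, -3589 and -2686 bp, where MMTV-CAF WT had none.

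In wound SG 6 members were higher, Fos (63.8 to 153), Fosb (32.5 to 78), Fosl1 (191 to 298), Jun (97.6 to 149), Atf3 (22.3 to 49.6) and Batf3 (0 to 31.9), against 54.0% of genes, and 0 were lower against 3.52%. Fosl2 (260 to 241, ratio 0.926) and Junb (245 to 223, ratio 0.91) did not follow, and both lay among the lowest ratios of the list, above 10.3% and 9.67% of genes. Over all genes the median ratio was 1.5, so most of these differences were of the size of the list-wide shift, and after division by it Fos, Fosb and Batf3 remained higher and Fosl2 and Junb became lower past 1.5-fold. With only the summits nearest to each gene the ratio was 0.533 at Fosl2 and 0.627 at Junb. At Fosl2 this leaves out the SG summit of 128 at -2104 bp and the WT summit of 47.8 at -2114 bp, both nearest to Gm10463. The value of 0.533 therefore depends on where summits were called and does not by itself show a decrease.

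**Figure D5:**
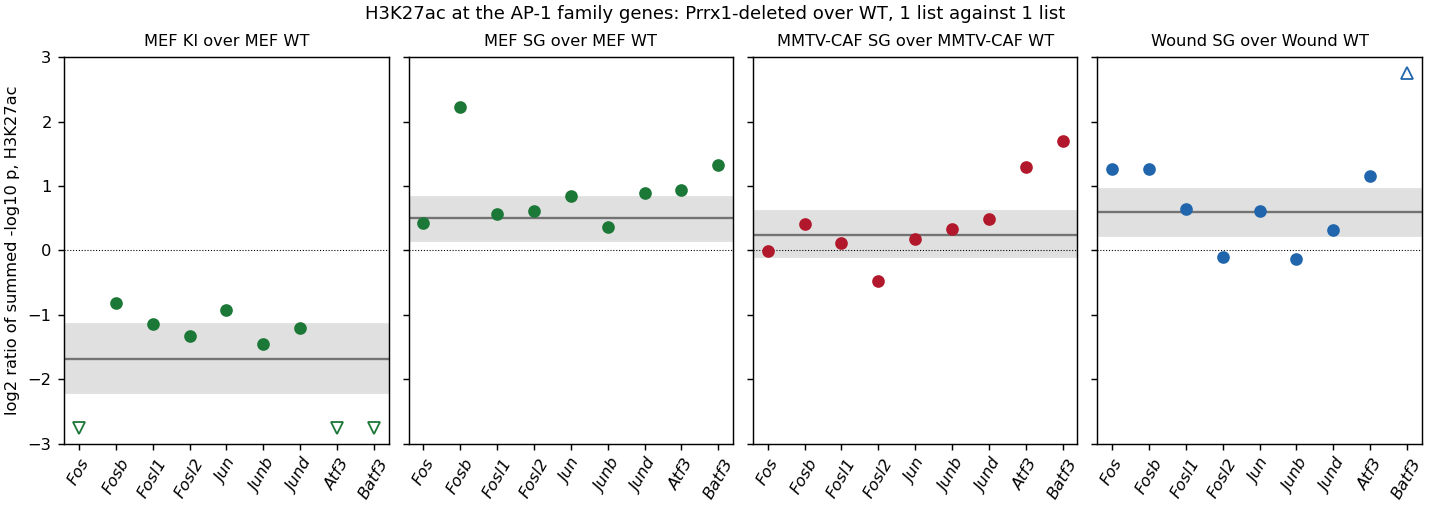
log2 ratio of the summed H3K27ac -log10 p, Prrx1-deleted over WT (vertical axis), for each AP-1 family gene in the 4 comparisons (panels). The line and the grey band are the median and the quartiles over all genes with summits in both lists, open triangles mark genes with no summit in the deleted (down) or WT (up) list, and the MEF panels share the WT list. Atf3 and Fosb lie above the median in all 3 SG panels, Batf3 does so in MEF and MMTV-CAF and has no WT summit in the wound panel, and Fosl2 below 0 in the MMTV-CAF and wound panels.

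Across the SG comparisons, Atf3 and Batf3 were past 1.5-fold higher in all 3 fibroblast types, 2 of 9 members beside 7.63% of the genes with a value in all 3 comparisons, with ratios of 1.9, 2.45 and 2.23 for Atf3 in the order MEF, MMTV-CAF, wound. Batf3 had 2.52 and 3.23 in the first 2 and no WT summit in the third. Both genes started from low sums in WT, 0 to 56.7, which rest on 0 to 2 summits. After division by the median ratio of all genes, Atf3 fell within 1.5-fold in MEF (1.35) and wound-healing fibroblasts (1.48), and with 25 kb windows so did Batf3 in MEF (1.25). Fosb was higher in MEF and wound SG and had a ratio of 1.33 in MMTV-CAF, and Junb lay between 0.91 and 1.28 throughout.

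PRRX1 summits lay within 10 kb of 5 of the 9 members in at least 1 list, a count for which no share of all genes was computed. There were 0 members with a summit in MEF against 7.06% of all genes, 3 in MMTV-CAF (Fosl1, Fosl2, Junb) against 22.1%, and 4 in wound-healing fibroblasts (Fos, Fosl2, Junb, Jund) against 16.8%. With summits of a -log10 p of at least 5 only, the cutoff stated for the study's sharp peaks, the members were 0 in MEF against 6.59% of genes, 2 in MMTV-CAF (Fosl1, Fosl2) against 19.1% and 3 in the wound list (Fos, Fosl2, Junb) against 13.8%, Junb through a summit nearest to Hook2. Jun, Fosb, Atf3 and Batf3 had none within 25 kb in any list, a window without a computed share of all genes. Joined within 500 bp, the 25 kb windows held 22 sites, 13 of them within 10 kb, and 3 were listed in 2 fibroblast types. These were the Fosl2 site at -804 bp in wound-healing fibroblasts (-log10 p of 10.4) and -661 bp in MMTV-CAF (8.53), the Fos site at -22784 bp in wound-healing fibroblasts (9.36) and -22761 bp in MEF (8.06), and a site at 26390 bp in MMTV-CAF (6.22) and 26436 bp in wound-healing fibroblasts (7.3) from the Fosl1 start, whose window overlaps an exon of Efemp2. The Fosl2 site was the highest of the 22 by -log10 p, and lay inside the Fosl2 H3K4me3 region of both WT lists.

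Junb had the most summits of the family in 1 list, 5 within 10 kb in wound-healing fibroblasts, at 8841, 2168, 1776, 115 and -7061 bp, with -log10 p of 3.66 to 6.32, and the window of the first of these overlaps an exon of the neighbouring Prdx2, while the last, with 6.32 the only one of at least 5, is nearest to the start of Hook2. In MMTV-CAF the only Junb summit was at -1225 bp (4.53). Fosl1 had summits in MMTV-CAF at -3069 and 9926 bp (both 6.95), the latter with a window over an exon of Ccdc85b, and Jund in wound-healing fibroblasts at 532 bp (3.66). The lowest values of the lists were 3 to 3.05, and their medians were 8.41 for MEF, 6.94 for MMTV-CAF and 6.32 for the wound list. With a -log10 p of at least 10, 1 member kept a summit, Fosl2 in wound-healing fibroblasts, and no share of all genes was computed at that cutoff.

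TAATTA lay within 100 bp of 69.1% of all PRRX1 summits for MEF (Wilson 95% interval 67.5% to 70.7%), 35.5% for MMTV-CAF (34.4% to 36.5%) and 41.9% for the wound list (40.6% to 43.2%). Of the 22 member sites 5 held it, 1 of them within 10 kb. TGANTCA lay at 12.9% of all PRRX1 summits for MEF (11.8% to 14.1%), 18.2% for MMTV-CAF (17.4% to 19.1%) and 13.0% for the wound list (12.1% to 13.9%), and at 2 of the 22 member sites. Around H3K27ac summits in the 10 kb windows of the members, TGANTCA was found at 2 of 32 in MEF WT, 2 of 51 in MMTV-CAF WT and 1 of 42 in wound WT, beside 4.17%, 4.98% and 3.8% of all H3K27ac summits. The intervals cover counting error only.

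Other AP-1 genes were described by counts, from lists of 13 binding partners and relatives, 16 upstream kinases and factors and 25 known targets. In MEF KI the H3K27ac sum was lower at 11 of 12 partners with a value, 15 of 16 upstream genes and 19 of 21 targets, and higher at 0 of each, beside the background of 90.4%. The H3K4me3 width was lower at 8 of 12, 7 of 15 and 9 of 19, beside 41.8% of all genes. Jdp2, a repressor that pairs with JUN proteins, went from 3938 to 1445 bp in width and from 127 to 8.76 in sum, and Maf, a further leucine zipper factor, from 5167 to 2094 bp and from 43.3 to 9.44. Among the targets, the cyclin gene Ccnd1 went from 6245 to 1693 bp and from 153 to 8.26, and Egr3, an immediate early zinc finger gene, from 4122 to 690 bp and from 34.7 to 6.6. Of the upstream genes, Mapk9, which encodes the kinase JNK2, went from 2341 to 935 bp and from 45.3 to 7.76.

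With the guide RNA the H3K27ac sum of these lists went mostly, but not everywhere, upward. In wound SG 5 of 12 partners, 10 of 16 upstream genes and 14 of 21 targets were higher, and 1, 1 and 0 lower, beside 54.0% of genes higher and 3.52% lower. In MMTV-CAF SG 2 of 13 partners, 5 of 16 upstream genes and 9 of 24 targets were higher and 2, 2 and 3 lower, beside 30.2% of genes higher and 9.39% lower, and the median log2 ratio of the partners was -0.14. In that list Lif, a cytokine gene, went from 2180 to 6913 bp in width and from 97 to 274 in sum, and Map3k5, which encodes the stress kinase ASK1, from 2424 to 4860 bp and from 98.4 to 319. In MEF SG 5 of 12 partners, 7 of 16 upstream genes and 3 of 21 targets were higher, and 1, 0 and 2 lower, beside 44.2% of genes higher and 6.11% lower.

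For 8 of the members the most alike gene is given, which was the one whose percentiles of H3K4me3 width and of H3K27ac sum per kb, over the 7 conditions and so 14 values, differed least on average. It was Sox12 for Fos (3.92 percentile points), Clic1 for Fosl1 (1.34), Zadh2 for Fosl2 (1.05), 1810013L24Rik for Jun (0.802), Mcl1 for Junb (0.422), Atf4 for Jund (1.5), Tubb2a for Atf3 (6.33) and Zfp184 for Batf3 (4.8). The median over all genes was 37 to 53.3 points. Members near the top of both marks had closer neighbours than Atf3 and the others of middle rank.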

How the data were processed

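ChIP-seq had been done on MEF, MMTV-CAF and wound-healing fibroblasts, 1 library per group, and groups came from the sample titles. Per the study's methods the authors used Trimmomatic on the reads, Bowtie for alignment to mm9, Picard against duplicates and MACS2 with the input of the same cells. For H3K27ac and PRRX1 the deposited values are a -log10 p at each summit of 1 bp. For H3K4me3 the authors deposited regions with a fold over input (a ratio), a -log10 p, a -log10 q and a display score, which was not used. For PRRX1 the study also names IgG as a control, and whether a PRRX1 list pools the duplicate ChIPs is not stated. The stated p cutoff is met by the H3K27ac lists, whereas PRRX1 scores go down to 3.

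The genome NCBIM37 (mm9) and GENCODE vM1 were used, and 0 intervals lay beyond a chromosome end. A member's H3K4me3 width and fold are those of the widest region over any annotated TSS. H3K27ac is the summed -log10 p of all summits in the body and 10 kb on each side. Differences past 1.5-fold, or a value in only 1 of the lists compared, were called, and the same was done for all protein-coding genes with a value in either list as background. Such sums depend on depth, which is unknown, and no test was run. The scripts were tested on simulated data. Named genes were the members, genes overlapping their windows, the most alike gene of each member and up to 4 genes per pathway list past 1.5-fold in the same direction for both marks. The most alike gene of Fosb is not reported here. The genes nearest to H3K27ac sites, at most 2 per member besides Ccdc85b and Fibp at Fosl1, were named after their values were seen. The members and lists were chosen with earlier results of these data known. Python 3.11.15, numpy 2.4.6, pandas 2.3.3 and matplotlib 3.10.9 were used. Alternatives are given in the closing section.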

Additional observations from a re-analysis of the deposited data

Results flagged for a closer look

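At 3 results the guide RNA went with a value past 1.5-fold in one fibroblast type and on the other side of 1 in another. These differences were not tested, since each rests on 1 list against 1 list. The H3K4me3 width at Fosl1 had a ratio of SG over WT of 0.49 in MMTV-CAF (11415 to 5591 bp) and 1.49 in wound-healing fibroblasts (3322 to 4941 bp). The MMTV-CAF WT region also covered the start of Ccdc85b, while the SG list had separate regions there. The fold over input at Fosl1 was 11.3 in MMTV-CAF WT and 11.2 in MMTV-CAF SG. The H3K27ac sum at Fos had a ratio of 2.4 in wound-healing fibroblasts (63.8 to 153) and 0.994 in MMTV-CAF (159 to 158). The H3K27ac sum at Fosl2 had a ratio of 1.52 in MEF (168 to 255), 0.716 in MMTV-CAF (368 to 263) and 0.926 in wound-healing fibroblasts (260 to 241). No group had enough libraries for a check of single samples that stand apart.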

How the results depend on the processing

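Of 147 recomputed counts of members, 127 stayed within 1.5 times the reported value. Except for PRRX1 summits of a -log10 p of at least 5, no share of all genes was computed for these alternatives. Their counts of members thus have no background beside them. Of 426 recomputed ratios of single members, 375 kept their side of the limit, 32 fell inside the limit, 13 passed it and 6 reversed. Dividing the H3K27ac sums by the median ratio of all genes changed most. In MEF KI it left 3 members lower and made 2 higher, and the ratios turned above 1 at Fosb (1.82), Fosl1 (1.44), Fosl2 (1.28), Jun (1.7), Junb (1.17) and Jund (1.4). It left 2 members higher in MEF SG and 3 in wound SG, and made 1 lower in MMTV-CAF SG (Fosl2) and 2 lower in wound SG (Fosl2, Junb). Counting only summits nearest to the member made the same number lower, 1 in MMTV-CAF SG and 2 in wound SG. At Fosl2 this leaves out the strongest SG summits, which are nearest to Gm10463, so it is not a separate check of a decrease. A 2-fold limit left 2 members with higher H3K27ac in MEF SG and 0 with a wider H3K4me3 region in MMTV-CAF SG. The members with a lower H3K4me3 fold over input in MEF KI fell from 8 to 3, both after division by the median ratio and with a 2-fold limit, alternatives chosen after seeing the data. PRRX1 summits lay at 2 members in MEF with 25 kb on each side (Fos, Jund), and with a -log10 p of at least 10 at 0 members in MMTV-CAF and at 1 for the wound list. Super-enhancers in MEF KI numbered 0 with stitching within 5 kb and 5 within 20 kb, an alternative chosen after seeing the data. Stitching within 5 kb left 3 in MMTV-CAF SG, and the 500 top clusters left 3 in MEF SG and 3 in wound SG. The causes were not tested. No paired analysis was possible because every group has 1 library, and leaving out a replicate was not possible either. Depth is unknown, so a missing region or summit may lie below what a list could detect.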
